A study of Nasonia vitripennis with 2 samples.

Results

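Unmethylated CpG-poor windows are stretches of 1000 bp that hold few CpG sites and in which no CpG site reached the threshold for methylation. Each scaffold was divided into windows of 1000 bp from position 1, without overlap, and a window was kept if it had at most 25 listed CpGs, at least 6 covered CpGs (10 or more reads) and no mCpG. A CpG was an mCpG if it was covered and more than 10% of its reads were methylated. The windows were thus chosen by their methylation values, and their lack of methylation at covered CpGs is a description and not a finding. The rule kept 23666 of the 250325 windows with a listed CpG, or 9.45%. Of all 222031 windows with at least 6 covered CpGs, which are called evaluable below, 91.8% had no mCpG.

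The data are a whole-genome bisulfite sequencing experiment on the parasitoid wasp Nasonia vitripennis. A single pool of 50 whole-body adult females of the strain AsymCX, aged 24 h, was sequenced in 2 lanes whose counts are summed in 1 table. There is no replicate, so no value has an error between samples and no test between groups was made. The table lists 14024488 CpGs on 6183 scaffolds with 226856322 read counts, a median of 11 reads for a listed CpG and 19 for each of the 7818889 covered CpGs. Intervals are 95% Wilson intervals, and they and the limits for a count of 0 (3 counts) cover counting error only, because reads amplified by PCR and carrying no molecular identifiers do not each stand for a separate molecule, and a read is counted at every CpG it spans.

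Bisulfite treatment converts unmethylated cytosines, which are then read as T, and leaves methylated cytosines as C. In many insects CpG methylation is sparse, is found mostly inside gene bodies, and leaves most of the remaining genome without methylation. Methylated cytosines mutate to thymine by deamination more readily than unmethylated ones, so sequences methylated in the germ line tend to lose CpGs over evolutionary time. Windows that are both CpG-poor and free of methylation are therefore of interest as the counterpart of methylated CpG-poor windows. They are compared below with methylated windows, which had equally few CpGs and more than 80% mCpGs among their covered CpGs.

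Most CpG-poor windows were unmethylated, though only 37.2% of those on scaffolds of 1 Mbp or more. Over all evaluable windows the proportion without mCpGs was higher, 91.8%. Of 32156 evaluable windows with at most 25 CpGs in the whole assembly, 23666 had no mCpG (73.6%, interval from 73.1%), 3210 were methylated windows (9.98%) and 5280 lay in between (16.4%). The proportion without mCpGs rose with the number of CpGs. It was 47.9% among windows with 6 CpGs (101 of 211) and 83.5% among windows with 25 CpGs (2213 of 2651), whereas the proportion of methylated windows dropped from 39.3% to 1.51%. In classes of 6 to 10, 11 to 15, 16 to 20 and 21 to 25 CpGs, 49.0%, 62.1%, 76.6% and 82.8% of the windows had no mCpG. Among the windows with the fewest CpGs, those with and those without methylation were thus of similar number. A window with more covered CpGs also has more CpGs at which a single mCpG would have removed it from the set, and the proportion rose in spite of this.

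**Figure D1:**
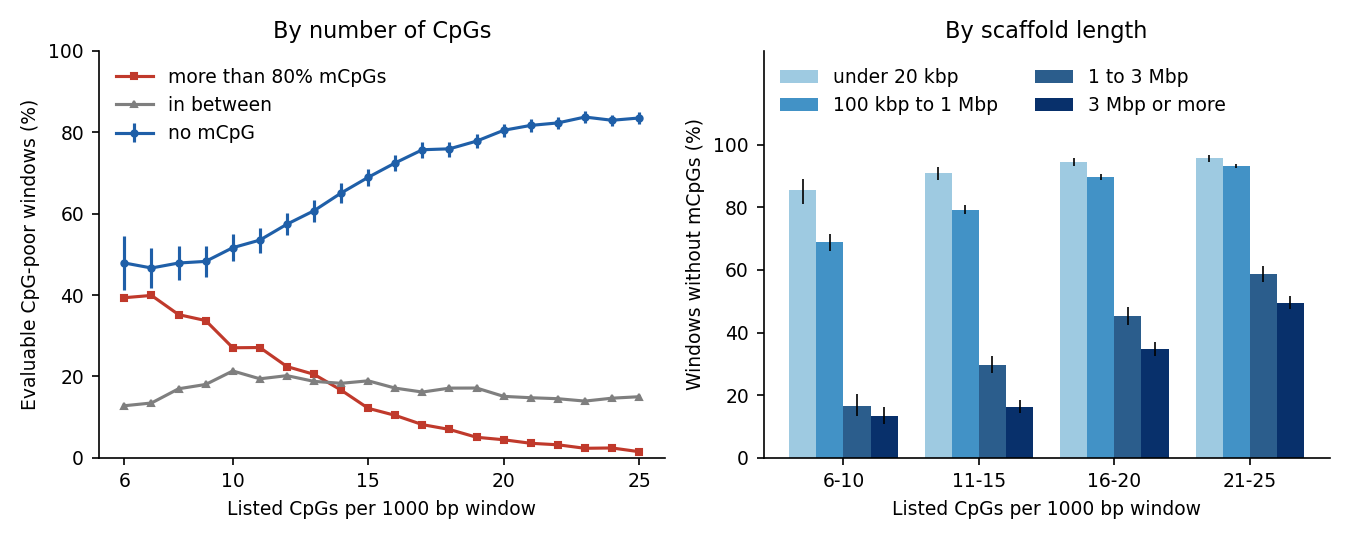
Left, percentage of evaluable CpG-poor windows with no mCpG (blue, with 95% Wilson intervals), with more than 80% mCpGs (red) and in between (grey) by the number of listed CpGs. Right, percentage without mCpGs by class of CpG number in scaffolds of 4 length classes, with 95% Wilson intervals: in scaffolds of 3 Mbp or more it goes from 13.3% to 49.6%, and in those under 20 kbp from 85.6% to 95.7%.

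The unmethylated windows were unevenly spread over the assembly, and scaffolds under 1 Mbp held most of them (20040). They lay on 2504 scaffolds, and none was on the mitochondrial sequences. Scaffold length, measured to the last listed CpG, had a median of 259212 bp for unmethylated windows and 2035310 bp for methylated windows. Only 15.3% of the unmethylated windows were on scaffolds of 1 Mbp or more, compared with 66.7% of the methylated windows. On scaffolds of 3 Mbp or more, 33.2% of the evaluable CpG-poor windows had no mCpG (1872 of 5640). The proportion was 42.7% on scaffolds of 1 to 3 Mbp (1754 of 4107), 87.5% at 100 kbp to 1 Mbp (13069 of 14929), 92.8% at 20 to 100 kbp and 93.6% below 20 kbp (3423 of 3658).

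The contrast between long and short scaffolds was present in every class of CpG number. Among windows with 6 to 10 CpGs, 14.7% on scaffolds of 1 Mbp or more and 73.5% on shorter scaffolds had no mCpG. Among windows with 21 to 25 CpGs the values were 53.3% and 94.0%. For evaluable windows of any CpG number the gap was smaller, 88.7% on the long scaffolds and 95.7% on the short ones. On long scaffolds, the values for CpG-poor windows and for all evaluable windows were 37.2% and 88.7%, and on short scaffolds they were 89.4% and 95.7%. CpG-poor windows were also more frequent on the short scaffolds, where they made up 22.3% of evaluable windows, compared with 8.03% on the long ones. Median depth of evaluable windows was similar in both, 17.7 reads on the short and 16.9 on the long scaffolds. What sequences the short scaffolds contain was not analysed here.

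Individual scaffolds differed widely in the proportion of CpG-poor windows without mCpGs. Of 267 scaffolds with at least 30 evaluable CpG-poor windows, the proportion without mCpGs in each had a median of 90.3% and ranged from 11.8% to 100%. It was over 90% on 135 scaffolds and under 50% on 52. All evaluable CpG-poor windows were unmethylated on 74 scaffolds, which together held 3658 of them. These scaffolds were 100085 to 1235691 bp long and carried 96 mCpGs among 268560 covered CpGs, and 31 of them had no mCpG at all. The longest was SCAFFOLD49 with 123 of 123. By contrast, the 17 scaffolds of 3 Mbp or more ranged only from 21.2% to 49.6%.

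The scaffolds with the most unmethylated CpG-poor windows were SCAFFOLD2, SCAFFOLD1 and SCAFFOLD10, all of them over 3 Mbp long. SCAFFOLD2 had 256 of 573 evaluable CpG-poor windows without mCpGs (44.7%), SCAFFOLD1 had 179 of 668 (26.8%) and SCAFFOLD10 had 174 of 351 (49.6%). The proportion on each of them was below the 73.6% of the whole assembly.

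**Figure D2:**
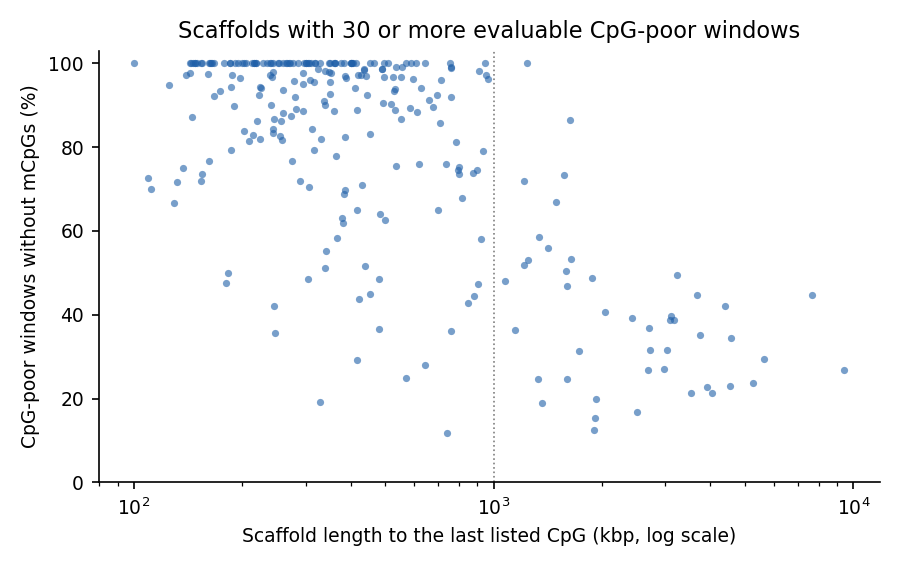
Percentage of evaluable CpG-poor windows without mCpGs against scaffold length (log scale) for the 267 scaffolds with at least 30 such windows, 1 point per scaffold. The dotted line marks 1 Mbp: to its left the median is 95.5% and to its right 37.9%.

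Sequencing depth of unmethylated and methylated windows was close once they were set at equal numbers of listed and of covered CpGs. Before this, the median of the mean depth per listed CpG was 27.6 reads in unmethylated and 33.6 in methylated windows. The unmethylated windows were then reweighted so that the numbers of listed and of covered CpGs were distributed as in the methylated windows, which left 22195 of them with a weight. Their median depth became 33.5 reads with quartiles of 25.3 and 43.4, and the methylated windows had quartiles of 26.4 and 42.2. The ratio of medians was 0.994.

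The ratio of the mean depths was 1.12, and it was carried by a few very deep windows. A total of 60 unmethylated windows had a mean depth over 200 reads, which no methylated window reached. The deepest methylated window was just below this limit, at 199.8 reads, and 2 windows in between exceeded it. SCAFFOLD2436:1001-2000 had 4758 reads per CpG over its 7 CpGs, SCAFFOLD95:182001-183000 had 2298 over 19 CpGs and SCAFFOLD242:22001-23000 had 2090 over 8 CpGs. The last listed CpG of SCAFFOLD2436 is at 1154, so its window may be cut short by the scaffold end. These 3 windows are named for their depth, after the values were seen. In the first, 46 of 33306 reads were methylated (0.138%), and in all 60 together 0.158%. Without the 60 windows the ratio of the means was 1.02.

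Within a scaffold, unmethylated windows were mostly somewhat shallower when the numbers of listed and covered CpGs were not set equal. In 63 scaffolds with at least 10 windows of each kind, compared without reweighting, the ratio of mean depths had a median of 0.908 and ranged from 0.721 to 1.24, and it was below 1 in 55 of them. The ratio of median depths had a median of 0.919, ranged from 0.674 to 1.36 and was below 1 in 44. An unmethylated window lay directly beside a methylated one in 91 pairs. Their median depths were 32 and 34.4 reads, and the unmethylated window was the shallower one in 57 pairs (62.6%). These pairs were not of equal CpG number, with a median of 17 CpGs in the unmethylated and 11 in the methylated window.

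CpGs were spaced more tightly in unmethylated than in methylated windows. At equal numbers of listed and covered CpGs, the median distance between successive CpGs was 33 bp in unmethylated and 43 bp in methylated windows, a ratio of 0.767. Gaps of 2 bp, the shortest that a pair of CpGs can have, made up 3.12% and 1.69% of the distances, and gaps of up to 10 bp 20.6% and 14.5%. With the same number of CpGs in 1000 bp, shorter gaps leave longer empty stretches. A stretch of at least 500 bp without a listed CpG was found in 24.8% of the reweighted unmethylated windows, compared with 2.21% of the methylated ones. Without reweighting these were 2720 of 23666 (11.5%) and 71 of 3210 windows. Windows in between, which have mCpGs, had such a stretch in 1.97%. Gaps of 2 bp made up 3.59% of the distances in windows in between and 3.53% in unmethylated windows, without reweighting.

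The difference in median gaps was smaller among windows without these long empty stretches. After windows with such a stretch were left out, the ratio of median gaps was 0.953. It was 0.791 when only the last window of each scaffold was left out, and 0.953 when both were, with 20399 unmethylated windows remaining. The last window of a scaffold, which can be cut short by the scaffold end, was 4.04% of unmethylated and 0.374% of methylated windows. The files list CpGs only, so a stretch of unknown bases in the assembly and a stretch of sequence without CpGs cannot be told apart. The difference in spacing was also measured within windows. The median gap multiplied by the number of CpGs and divided by 1000 bp, which is smaller the more the CpGs are bunched, was 0.567 in unmethylated and 0.648 in methylated windows, and 0.600 and 0.651 after windows with a long empty stretch and the last windows of scaffolds were left out, all without reweighting. In windows in between this value was 0.576, with none left out. It was smaller in the unmethylated window in 71 of the 91 adjacent pairs, with medians of 0.380 and 0.590. Within the 63 scaffolds the ratio of this value had a median of 0.850 and was below 1 in 56.

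**Figure D3:**
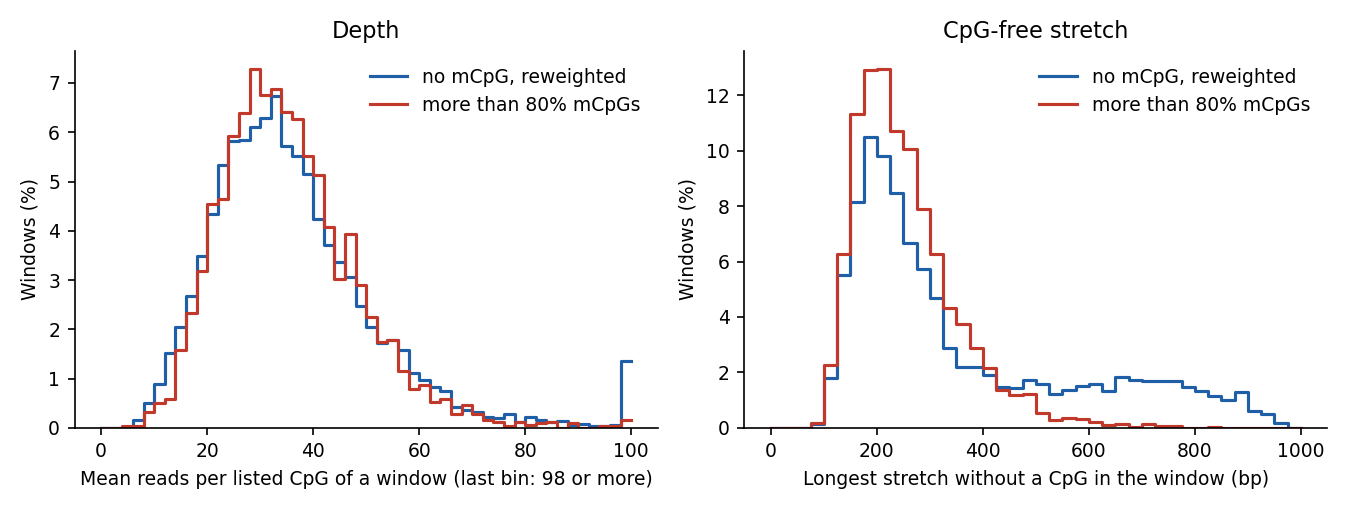
Left, mean reads per listed CpG of a window, and right, longest stretch without a listed CpG in it (bp), as the percentage of windows in each bin. Unmethylated CpG-poor windows (blue) are reweighted to the numbers of listed and covered CpGs of methylated windows (red): the depths overlap, with medians of 33.5 and 33.6 reads, while 24.8% and 2.21% of the windows have an empty stretch of 500 bp or more.

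The distances between CpGs also differed slightly in their periodicity. Coding sequence often shows distances that are multiples of 3, because the bases of a codon occur at unequal frequencies. Over all pairs of CpGs up to 99 bp apart in the same window, 34.9% of the distances in unmethylated windows were divisible by 3, compared with 36.6% in methylated windows, 35.5% in windows in between and 33.7% of the possible distances. After reweighting the value for unmethylated windows was 34.5%. On scaffolds of 1 Mbp or more it was 33.9% after reweighting, beside 37.2% in methylated windows. The difference was smaller on scaffolds under 1 Mbp (34.7% and 35.5%) and on those under 20 kbp (34.0% and 34.4%). Pairs share CpGs, so no interval is given.

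Unmethylated windows had unmethylated neighbours. Of 39626 evaluable windows directly beside one, 38500 had no mCpG (97.2%, interval 97.0% to 97.3%), and 38.7% belonged to the set themselves. Only 0.230% were methylated windows. Beside methylated windows, 706 of 6062 evaluable windows had no mCpG (11.6%, interval 10.9% to 12.5%) and 1.50% were unmethylated CpG-poor windows. With the reweighting the value for unmethylated windows was 96.4%.

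The neighbours have to be read against the scaffolds on which they lie. On scaffolds of 1 Mbp or more, 90.5% of the windows beside an unmethylated CpG-poor window had no mCpG, close to the 88.7% of all evaluable windows there. On shorter scaffolds the values were 98.5% and 95.7%. The surroundings of the unmethylated windows were thus near the background on the long scaffolds and above it on the shorter ones. Those of methylated windows were far below it on both, with 12.2% and 10.5%. At 10 windows to the left and right the percentage was 94.9% and 94.7% for unmethylated windows, and 72.1% and 70.3% for methylated ones. The median number of CpGs in windows 20 places away was 40 for unmethylated and 55 for methylated windows on all scaffolds, but on scaffolds of 1 Mbp or more it was the same for both, 59 to the left and 60 to the right. An adjacent window without any listed CpG was found at 8.11% of the positions beside unmethylated windows and at 1.11% of those beside methylated windows.

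The distance to the nearest mCpG depended on the scaffolds. It had a median of 24833 bp (quartiles 7369 and 72822 bp) among the windows on scaffolds with an mCpG, and 8193 windows (34.6%) were on scaffolds without any. In 1009 of the unmethylated CpG-poor windows (4.26%) an mCpG lay within 1 kbp. Of 180250 CpG-rich windows without mCpGs, that is windows with more than 25 CpGs, 20898 (11.6%) were on scaffolds without any mCpG. Their median distance on the other scaffolds was 15956 bp, and 5.89% of all of them had an mCpG within 1 kbp. On scaffolds of 1 Mbp or more the order was the opposite. There the median distance was 11081 bp for unmethylated CpG-poor windows and 13070 bp for CpG-rich windows without mCpGs, and 14.9% and 7.85% had an mCpG within 1 kbp. Depth and spacing changed little with this distance. The median depth was 31.6 reads in windows within 1 kbp of an mCpG and 27.9 at 50 kbp or more, and the median gap was 25 bp and 28 bp, without reweighting.

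Unmethylated CpG-poor windows formed 15989 runs of directly successive windows, of which 11290 were single windows. There were 300 runs of 5 or more windows, which held 1744 windows. The 3 longest runs had 13 windows each. On SCAFFOLD33 the run at 1409001 to 1422000 had 217 CpGs, of which 175 were covered, and 12 of 5176 reads at them were methylated, with the nearest mCpG 44760 bp away. On SCAFFOLD4 the run at 4191001 to 4204000 had 250 CpGs, of which 235 were covered, and 22 of 11980 reads were methylated, with the nearest mCpG at 8402 bp. On SCAFFOLD2209 the run at 4001 to 17000 had 212 CpGs with 16 of 10226 reads methylated, and the scaffold had no mCpG. Long runs thus occurred both on long scaffolds with methylation and on a short one without.

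Reads that stayed C, called methylated here, were rare but not absent in the unmethylated windows. At their 349058 covered CpGs, which the rule used, 22948 of 13148637 reads were methylated (0.175%). Incomplete conversion and sequencing errors also give such reads. The authors reported a higher share of unconverted C for unmethylated lambda DNA, which was a separate control library. For non-CpG sites of the wasp DNA they reported a share below that of lambda DNA. How many of these reads come from methylated CpGs was not tested. No methylated read was found at 328956 of these CpGs (94.2%), 18316 had 1 and 1786 had 2 or more. The highest value the rule admits, exactly 10%, was reached at 188 CpGs in 184 windows. Just outside the rule, 685 CpG-poor windows had exactly 1 mCpG, with a median of 23.1% at it, and in 310 of them it was at 20% or below.

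CpGs with 1 to 9 reads were not used to choose the windows, although many of their reads also span a covered CpG that was. The unmethylated windows held 74439 of them, at which 1080 of 387838 reads were methylated (0.278%, interval 0.262% to 0.296%). In methylated windows it was 69.1% (16322 of 23622 reads, interval 68.5% to 69.7%) and in windows in between 23.3%. At the 16889 of these CpGs in unmethylated windows that lay at least 100 bp from every covered CpG, farther than a trimmed read reaches, 301 of 69707 reads were methylated (0.432%, interval 0.386% to 0.483%), beside 64.0% in methylated windows and 0.122% in CpG-rich windows without mCpGs. Methylation was thus also low at CpGs that share no read with those on which the choice rested. At all CpGs with 1 to 9 reads it was higher than the 0.118% (interval 0.116% to 0.119%) at such CpGs in CpG-rich windows without mCpGs. At covered CpGs the values were 0.175% and 0.128%, and the order was the same in each of the classes of equal depth from 10 to 99 reads, for example 0.163% and 0.111% at 10 to 19 reads and 0.176% and 0.146% at 60 to 99 reads. These values at covered CpGs were all below the share reported for lambda DNA, whereas the 0.432% at the CpGs far from covered ones was above it.

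These residual methylated reads were most frequent near mCpGs. At the CpGs with 1 to 9 reads the percentage was 1.46% (interval 1.28% to 1.67%) in unmethylated CpG-poor windows within 1 kbp of an mCpG, 0.406% at 1 to 2 kbp, 0.337% at 2 to 5 kbp, 0.262% at 5 to 10 kbp and 0.202% at 50 kbp or more. At covered CpGs it went from 0.457%, which is above the share reported for lambda DNA, to 0.148%. Over all distances, part of the methylated reads at CpGs with 1 to 9 reads came from a few CpGs. How many of those reads lay within 1 kbp of an mCpG was not counted. At 43 CpGs with fewer than 10 reads, at least 2 of them methylated, more than 50% of the reads were methylated. They lay in 30 windows (0.127%), 18 of which were within 1 kbp of an mCpG, and gave 169 methylated reads (15.6% of those at CpGs with 1 to 9 reads). With a lower minimum of reads, such windows could leave the set.

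**Figure D4:**
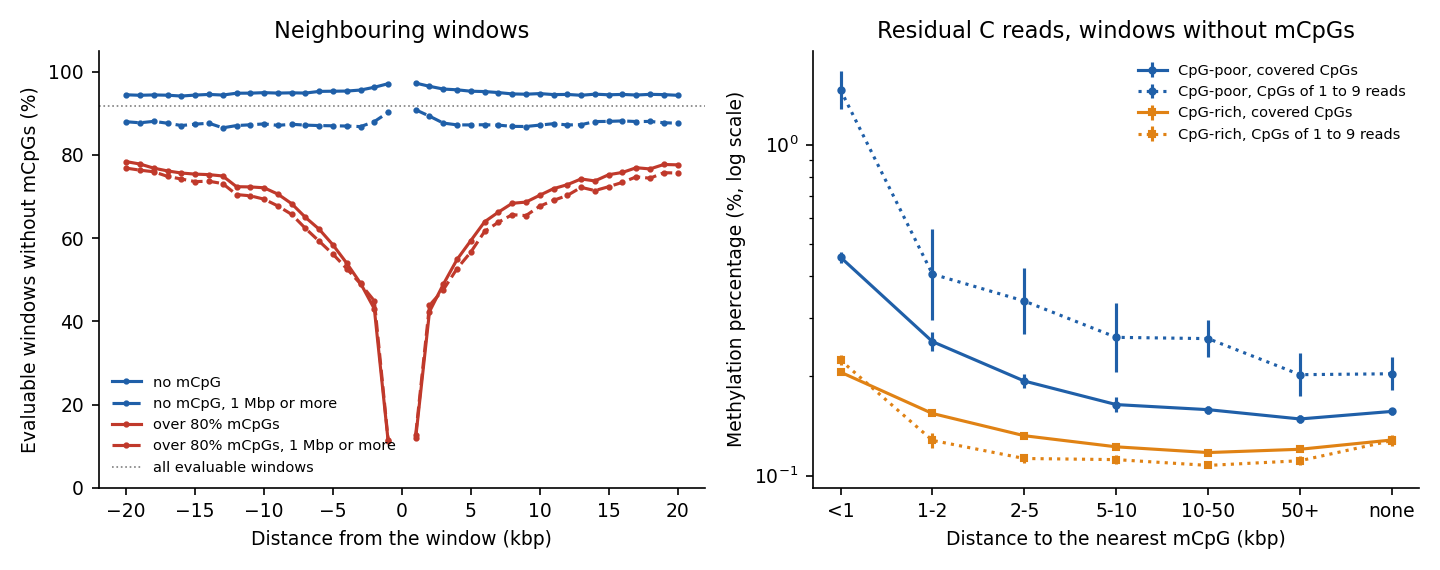
Left, percentage of evaluable windows without mCpGs at 1 to 20 kbp to either side of unmethylated CpG-poor windows (blue) and methylated windows (red), on all scaffolds (solid) and on scaffolds of 1 Mbp or more (dashed), with the 91.8% of all evaluable windows dotted. Right, methylation percentage (log scale, 95% Wilson intervals) in windows without mCpGs by distance to the nearest mCpG, where none is a scaffold without mCpGs: in CpG-poor windows (blue) it goes from 0.457% to 0.148% at covered CpGs and from 1.46% to 0.202% at CpGs of 1 to 9 reads, and CpG-rich windows (orange) are lower.

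No methylated read at any CpG was found in 11285 of the unmethylated CpG-poor windows (47.7%). The same held for 59896 of 180250 CpG-rich windows without mCpGs (33.2%). These shares depend on the number of reads in a window, which was not set equal. The 11285 windows had a median of 405 reads, for which a count of 0 allows a true level of up to 0.741%. In windows with fewer reads the limit is higher. The limit was lowest in those with the most reads. SCAFFOLD58:76001-77000 had 25 CpGs, all covered, and 0 of 2195 reads methylated, which allows up to 0.137%. SCAFFOLD393:13001-14000 had 0 of 2106 reads methylated at 18 covered CpGs (up to 0.142%) and no mCpG on its scaffold. SCAFFOLD417:41001-42000 had 0 of 1980 reads methylated (up to 0.152%), although only 13 of its 25 CpGs were covered.

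Only 4 of the unmethylated windows had a methylated window directly on both sides, and 87 had at least 1, of 22868 with an evaluable neighbour. SCAFFOLD13:1217001-1218000 was the one with the most covered CpGs. Its 13 CpGs had 4 of 633 reads methylated (0.632%), between windows with 61.4% (243 of 396) and 72.5% (200 of 276). The change was sharp on its left side, where the CpG at 1216870 had 27 of 44 reads methylated, the CpGs at 1216949 and 1216968 had 0 of 22 and 1 of 33, and the first CpG inside the window, at 1217049, had 0 of 22. On the right side the CpG at 1218162 had 0 of 51 reads methylated and that at 1218369 had 9 of 15. The unmethylated interval thus reached beyond the window on both sides.

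The other 3 windows were less complete. In SCAFFOLD33:753001-754000, 2 of 542 reads were methylated at 11 covered CpGs (0.369%), which all lay from 753600 onwards, and another CpG, at 753394, had 2 reads, both of them methylated. In SCAFFOLD63:766001-767000, all 7 CpGs lay within 766055 to 766070 and had 3 of 190 reads methylated (1.58%), and the next 930 bp had no CpG. SCAFFOLD16:2170001-2171000, added after its values were seen, had 1 of 291 reads methylated at 6 covered CpGs (0.344%), and 7 of 7 at the CpG at 2170959, which had too few reads to count as covered. In 2 of the 4, a CpG below the coverage minimum was thus read as fully methylated.

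**Figure D5:**
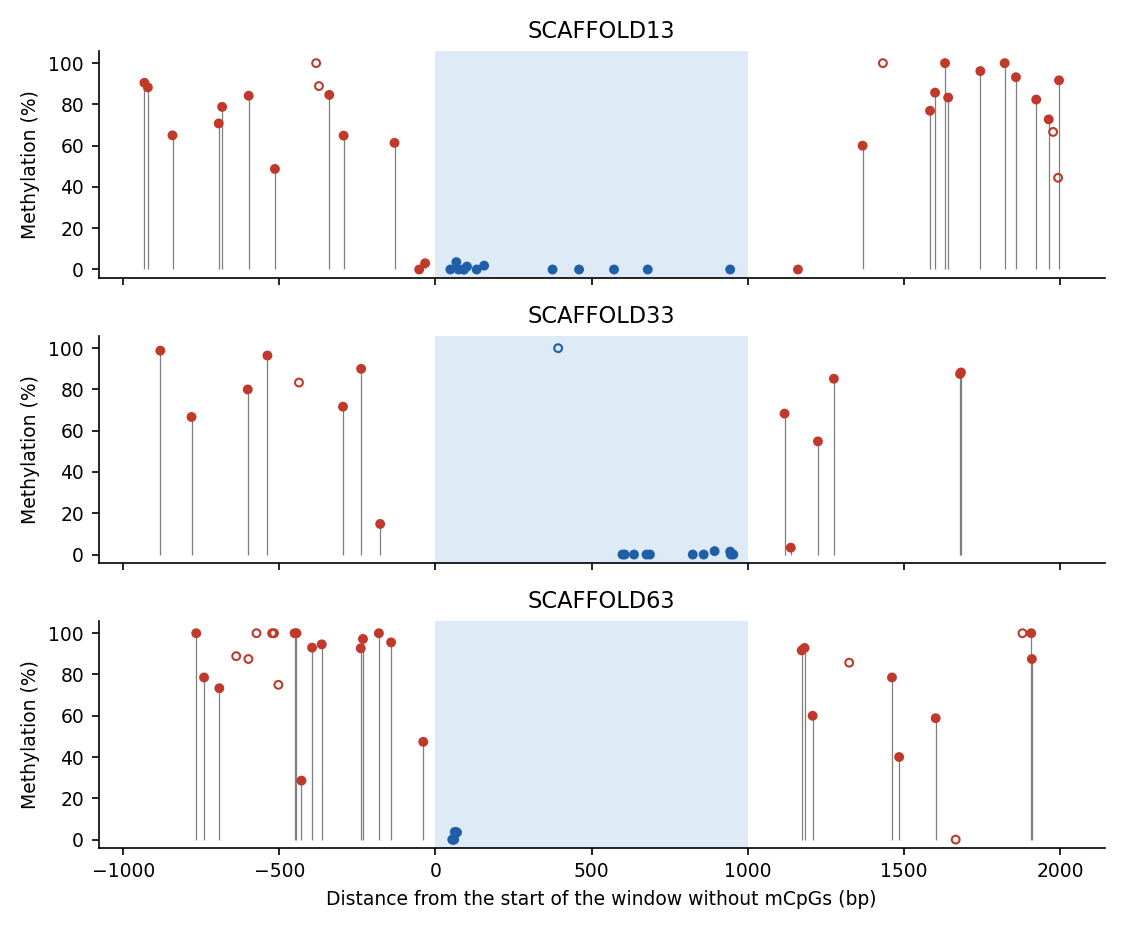
Methylation percentage of single CpGs in 3 unmethylated CpG-poor windows (shaded, blue) and in the methylated windows to either side (red), by distance in bp from the start of the unmethylated window. Filled circles are covered CpGs and open circles CpGs with 1 to 9 reads: on SCAFFOLD13 all 13 CpGs inside are at 3.57% or below, on SCAFFOLD33 there is 1 open circle at 100%, and on SCAFFOLD63 the 7 CpGs lie close together.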

How the data were processed

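Per the labels, DNA of 1 pool was bisulfite converted and sequenced in 2 lanes. The authors aligned trimmed reads to converted scaffolds and deposited raw counts of C and T reads per CpG, summed over lanes and strands. The submitters' processing notes name CASAVA 1.7 and BWA. The version of BWA and the scaffold build are not given in the sources used here. Duplicate reads, if kept, would raise depth without adding molecules.

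Windows, gaps, neighbours and reweighting (exact classes of listed and covered CpGs) were computed with Python 3.11.15, pandas 2.3.3 and NumPy 2.4.6, and drawn with matplotlib 3.10.9. On simulated data the states of 400 of 400 windows were recovered. The windows and descriptions were chosen with earlier results of these data known. Windows were named by rule: the 3 with the most reads and no methylated read, the 3 longest runs, the 3 between methylated windows with the most covered CpGs, and the 3 scaffolds with the most such windows. Alternatives were other minimums, thresholds, window sizes and subsets. Sequences and genes were not analysed here.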

Additional observations from a re-analysis of the deposited data

Results flagged for a closer look

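CpG-poor windows with fewer than 6 covered CpGs take part in none of the comparisons above, and some of them held methylation. There were 11211 of them, of which 3224 list fewer than 6 CpGs and 5251 have no covered CpG. Among their 18339 covered CpGs, 1334 were mCpGs (7.27%, interval 6.91% to 7.66%). An mCpG was found in 446 of the 5960 windows with at least 1 covered CpG. In evaluable CpG-poor windows 14.8% of the covered CpGs were mCpGs. Whether the windows that were left out would belong to the unmethylated or to the methylated ones was not tested.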

How the results depend on the processing

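The number of unmethylated CpG-poor windows was 5556 with at most 15 CpGs, 3626 on scaffolds of 1 Mbp or more, 51272 with windows of 500 bp and 10630 with windows of 2000 bp, and between 19409 and 24943 otherwise. The percentage of evaluable CpG-poor windows without mCpGs was 72.9% and 71.9% with a coverage minimum of 5 and 20 reads, 65.7% and 74.7% with mCpGs above 5% and 20%, 74.6% with windows shifted by 500 bp, 76.3% and 73.0% with windows of 500 and 2000 bp, 58.3% with at most 15 CpGs, 37.2% on scaffolds of 1 Mbp or more and 71.1% without windows with an empty stretch of 500 bp or at a scaffold end. The ratio of depths fell below 1 without reweighting (0.873), as a ratio of medians (0.994) and without CpGs of more than 170 reads (0.994). In the other alternatives it was between 1.02 and 1.18. The ratio of median gaps was 0.628 without reweighting and 0.953 without windows with a long empty stretch, alone or together with those at a scaffold end, and 0.659 to 0.881 otherwise. The percentage of adjacent evaluable windows without mCpGs was 92.5% with a coverage minimum of 5 reads, 83.8% and 97.6% with mCpGs above 5% and 20%, 97.3% and 96.7% with windows of 500 and 2000 bp, 96.8% with at most 15 CpGs and 90.5% on scaffolds of 1 Mbp or more. The causes of these changes were not tested, apart from those that follow from the number of windows in an alternative. The alternatives without long empty stretches or scaffold ends, without windows of mean depth over 200 reads and with medians were chosen after seeing the data. At CpGs with 1 to 9 reads, the methylation percentage was between 0.214% and 0.496%. No paired analysis was possible because both lanes are runs of 1 pool and their counts are summed. Depth limits the account to windows with at least 6 covered CpGs.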

Other observations

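Among scaffolds of 1 Mbp or more with at least 30 evaluable CpG-poor windows, the fewest unmethylated ones were on SCAFFOLD28 (21 of 168, 12.5%), SCAFFOLD42 (19 of 123, 15.4%) and SCAFFOLD24 (24 of 142, 16.9%). These 3 scaffolds were chosen after the values were seen. On SCAFFOLD28, 78.3% of all evaluable windows had no mCpG.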
